A study of Mus musculus with 8 samples.

Results

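Long non-coding RNAs (lncRNAs) are long transcripts that have no recognised protein product, and many but not all are spliced and polyadenylated like mRNAs. The 200 most abundant lncRNA genes of mouse spleen CD8 T cells are described here, out of 1378 lncRNA genes among the 15609 genes of the deposited table. They were chosen by their measured level, as the rows with the deposited biotype lncRNA that had the highest mean CPM (a gene's count as a share of its library's total, scaled to 1e6) over 8 libraries. Their abundance is therefore a description and no finding, and because 4 of the 8 libraries were Ly6C+ cells, the mean weighted those cells most.

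The libraries came from wild-type C57BL/6 mice, with no treatment given in the labels and no age or number of animals stated. CD8 T cells were isolated with magnetic beads and sorted into naive cells (CD44- CD49d-, 1 library), true memory cells (CD44hi CD49d+, 1 library) and virtual memory (VM) cells, which are CD44hi CD49d- and form without contact with a foreign antigen. VM cells were separated by the surface proteins Ly6C and Sca-1 into Ly6C+ Sca-1- cells with 2 libraries, Ly6C+ Sca-1+ cells with 2, Ly6C- Sca-1- cells with 1 and Ly6C- Sca-1+ cells with 1. The 2 libraries of a replicated group are called A and B, after the absence or presence of a suffix in the column name whose meaning is not stated. Nothing says that they came from separate animals, so p-values measure the spread between these libraries, and for a group with 1 library the test borrows the spread of the replicated ones.

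Some lncRNAs work in the nucleus, where Malat1 lies in the nuclear speckles that hold splicing factors and Neat1 is the scaffold of paraspeckles. Others are hosts, spliced transcripts whose introns are processed into small nucleolar RNAs (snoRNAs, guides for the chemical modification of ribosomal RNA) or microRNAs. Others lie beside a protein-coding gene whose expression they can affect, as Ifngas1 lies beside the interferon gamma gene in the mouse. In bulk samples, fewer cells with a transcript and less of it per cell cannot be told apart.

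Library totals ran from 49993407 to 63815914 counts, so that 1 count was worth 0.0157 to 0.0200 CPM. The lowest count of any of the 200 genes in any library was 74, for Gm46093. T cell markers (7 of 7 in the table, Cd8a among them) summed to 4037 to 4820 CPM in every library. Markers of other cells were uneven, and those of 1 list exceeded the T cell sum in true memory cells. Genes of dendritic cells and of MHC class II (8 of 9 in the table) summed to 5247 CPM in true memory cells and 46.6 to 366 elsewhere. Monocyte and macrophage genes (9 of 9) summed to 187 CPM in true memory cells, 52.1 and 85.4 in the Ly6C- VM libraries, 83.6 and 116 in Ly6C+ Sca-1+ cells, with 16.4 to 27.7 in Ly6C+ Sca-1- and naive cells. Cell cycle genes (10 of 10) summed to 736 and 1273 CPM in the Ly6C- VM libraries and 983 in true memory cells, against 78.6 to 280 in Ly6C+ VM and 33.3 in naive cells. B cell genes (5 of 5) summed to 13.4 to 32.7 CPM, CD4 T cell genes (3 of 3) to 1.53 to 55.6 and erythroid genes (5 of 6) to 3.54 to 35.4. Plasma cell genes (2 of 3) summed to 25.5 to 76.5 CPM and NK cell genes (2 of 3), some of which CD8 T cells also express, to 227 to 355. No marker in the table was at 0, because the smallest count in it was 1, and the part of other cells in the results below was not tested.

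By symbol and description, 62 of the 200 were predicted genes, 61 were RIKEN clones, 51 had other names, 15 were snoRNA hosts, 10 were antisense or opposite-strand genes and 1, Mir17hg, was a microRNA host. Of 42 well studied lncRNAs, 31 were in the table and 21 were among the 200. The deposited biotype did not always match other annotations. RefSeq gave 199 of the genes a row and called 193 of them lncRNA, 5 protein-coding (1810058I24Rik, BC029722, Ndufb1-ps, Btbd19 and 0610012G03Rik) and 1, LOC115487368, a pseudogene. GENCODE M21 called 10 protein-coding, among them Gm20605, the second most abundant, and Gm20716.

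The microRNAs inside 3 of the hosts are shown because 1 of those hosts, Ftx, differed between VM groups. Ftx lies in the X-inactivation centre, Mir17hg carries the miR-17-92 cluster, which promotes lymphocyte proliferation, and Snhg20 carries Mir6516. Sequences are those of RefSeq on GRCm38.p6, written 5′ to 3′ with the seed (bases 2 to 8) in capitals, for hairpins found within the host on its own strand.
mmu-miR-421-5p, in Ftx: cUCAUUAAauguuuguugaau
mmu-miR-374b-5p, in Ftx: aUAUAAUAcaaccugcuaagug
mmu-miR-374b-3p, in Ftx: gGUUGUAUuaucauuguccgag
mmu-miR-92a-3p, in Mir17hg: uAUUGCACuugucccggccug
mmu-miR-92a-1-5p, in Mir17hg: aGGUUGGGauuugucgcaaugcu
mmu-miR-6516-5p, in Snhg20: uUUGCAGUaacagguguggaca
mmu-miR-6516-3p, in Snhg20: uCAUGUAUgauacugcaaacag
Of the miR-17-92 cluster only the Mir92-1 hairpin lies within the RefSeq span used for Mir17hg, so its other microRNAs are not shown. No seed was shared between the 7 microRNAs listed. They were not measured, since the libraries hold host transcripts only.

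The promoters of 4 genes that rose in Ly6C+ VM cells are shown from 250 bases before to 50 bases after the annotated start, 5′ to 3′ on the gene's strand, from RefSeq on GRCm38.p6. These are Ifngas1 at chr10:118556476-118556775 (minus strand), Gm33104 at chr10:19486465-19486764 (plus), Gm36631 at chrX:59589038-59589337 (plus) and Mirt1 at chr19:53464747-53465046 (minus). Capitals mark matches, on either strand, to 4 motifs of factors active in CD8 T cells: the T-box half-site GGTGTGA, the STAT site TTCNNNGAA, the Runx site TGTGGT and the interferon-response core.
Ifngas1: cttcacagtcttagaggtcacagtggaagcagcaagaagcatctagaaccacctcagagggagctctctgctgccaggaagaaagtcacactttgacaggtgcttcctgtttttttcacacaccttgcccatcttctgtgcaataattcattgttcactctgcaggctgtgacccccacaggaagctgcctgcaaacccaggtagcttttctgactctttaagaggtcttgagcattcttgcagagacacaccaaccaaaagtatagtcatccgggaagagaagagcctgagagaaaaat
Gm33104: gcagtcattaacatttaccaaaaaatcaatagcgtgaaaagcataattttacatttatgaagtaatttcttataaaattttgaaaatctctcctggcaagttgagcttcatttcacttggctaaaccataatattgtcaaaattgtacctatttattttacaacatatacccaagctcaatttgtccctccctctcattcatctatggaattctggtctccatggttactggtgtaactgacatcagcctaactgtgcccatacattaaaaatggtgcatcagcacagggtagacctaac
Gm36631: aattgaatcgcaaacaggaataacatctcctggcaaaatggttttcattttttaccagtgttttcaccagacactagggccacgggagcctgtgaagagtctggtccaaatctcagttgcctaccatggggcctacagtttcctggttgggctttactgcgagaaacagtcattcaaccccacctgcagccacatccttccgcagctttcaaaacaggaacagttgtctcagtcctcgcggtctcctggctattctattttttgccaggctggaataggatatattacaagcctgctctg
Mirt1: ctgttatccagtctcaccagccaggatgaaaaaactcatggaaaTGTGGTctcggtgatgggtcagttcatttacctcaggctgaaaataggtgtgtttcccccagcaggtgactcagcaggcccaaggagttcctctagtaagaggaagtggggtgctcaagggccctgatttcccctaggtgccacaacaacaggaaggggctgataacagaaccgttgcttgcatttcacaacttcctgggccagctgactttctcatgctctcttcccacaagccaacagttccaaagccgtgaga
The only match was a Runx site in the Mirt1 window, which starts at position -206. Across the 35 genes that rose in Ly6C+ VM cells and had a promoter in the table, the Runx site was in 22.9%, the STAT site in 8.57%, the T-box half-site in 2.86% and the interferon-response core in 0%. Across the 160 of the 200 genes with a promoter, the shares were 20.6%, 7.5%, 3.75% and 3.75%, and across all 27025 promoters of the RefSeq set 16.9%, 8.42%, 3.96% and 3.49%. A match is a description of letters and not of binding.

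The 200 genes together held 0.541% to 0.706% of all counts. Their share was 0.653% in naive cells, 0.615% and 0.706% in Ly6C+ Sca-1- A and B, 0.601% and 0.668% in Ly6C+ Sca-1+ A and B, 0.573% in Ly6C- Sca-1-, 0.541% in Ly6C- Sca-1+ and 0.605% in true memory cells. Both Ly6C- VM libraries had a lower share than every other library. Malat1 alone took 17.0% to 24.6% of the counts of the 200 and the 10 most abundant genes took 43.5% to 50.1%. The median of the mean levels was 11.8 CPM. A mean of at least 100 CPM was reached by 12 genes, at least 20 CPM by 59 and at least 10 CPM by 115.

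Malat1 (Gene ID 72289, chr19:5795690-5802672) had a mean of 1259 CPM, with 1285 CPM in naive cells, 1318 and 1444 in Ly6C+ Sca-1-, 1216 and 1134 in Ly6C+ Sca-1+, 1030 in Ly6C- Sca-1-, 1158 in Ly6C- Sca-1+ and 1489 in true memory cells. It was highest in true memory cells, and among VM libraries the Ly6C+ Sca-1- pair lay above the rest, while Ly6C+ Sca-1+ and the Ly6C- libraries overlapped. Neat1 (Gene ID 66961, chr19:5824708-5845480) was at 299 CPM in naive cells, 179 and 257 in Ly6C+ Sca-1-, 182 and 325 in Ly6C+ Sca-1+, 186 in Ly6C- Sca-1-, 175 in Ly6C- Sca-1+ and 264 in true memory cells. In both replicated groups library B was well above library A. The next in order were the predicted gene Gm20605 (mean 267 CPM, annotated on the same strand as Lrch4), the snoRNA host Gas5 (190), Gm20559 (183), Tug1 (167), which starts within 1 kb of Morc2a on the other strand, 2900097C17Rik (142), AW112010 (141), Gm26740 (123), AI504432 (115), 1810026B05Rik (114) and BE692007 (112). After these came Snhg1 (88.1), 2410006H16Rik (74.6), Mirt1 (70.8), Snhg8 (67.9), AI662270 (67.3), Gm30054 (60.4), Zfas1 (57.4) and Gm36417 (57.0).

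**Figure D1:**
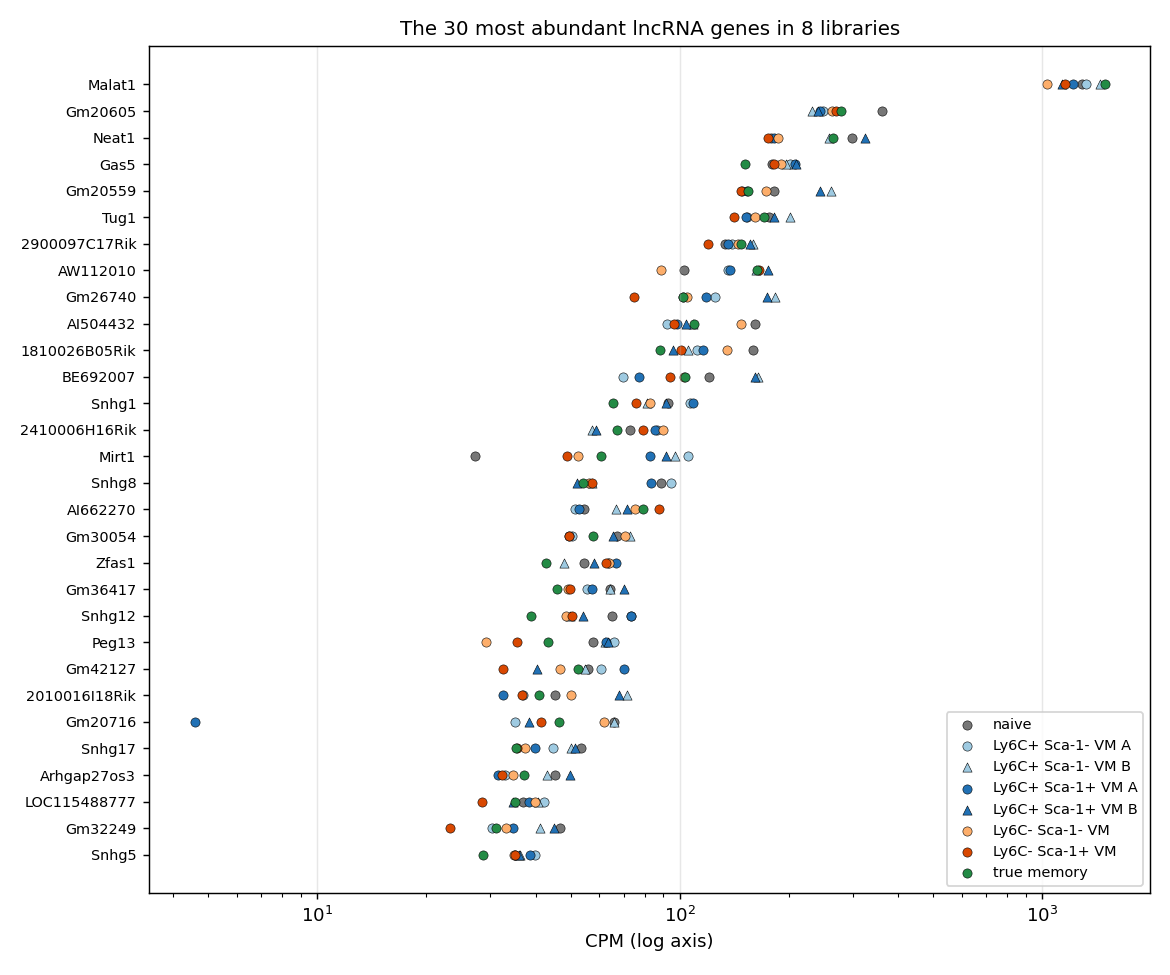
Level in CPM (log axis) of the 30 lncRNA genes with the highest mean, 1 point per library, with groups by colour and library B of a replicated group as a triangle. Malat1 lies apart from the rest, Gm20716 has 1 low library (4.58 CPM in Ly6C+ Sca-1+ A), and Mirt1 is lowest in naive cells (27.2 CPM).

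Levels of different genes can be compared only per length, and the deposited TPM values allowed this in the 4 groups with 1 library. Gas5 was then the most abundant, at 508 TPM in naive, 538 in Ly6C- Sca-1-, 499 in Ly6C- Sca-1+ and 438 in true memory cells. Malat1 was second by the mean (383, 306, 333 and 452 TPM in the same order), and the 2 changed places in true memory cells. AW112010 followed at 276, 237, 430 and 445 TPM, with 2410006H16Rik and Snhg1 close to it. Of the 200 genes, 140 were also among the 200 lncRNA genes with the highest mean TPM of these 4 libraries. The choice had a soft edge: the last inside were 4930417O13Rik (5.39 CPM), Gm46093 (5.39) and LOC115487194 (5.291), and the first outside were Gm12216 (5.284), LOC102640133 (5.283) and Gm35824 (5.273). Without their highest library, 10 of the 200 fell under the lowest mean of those chosen.

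Across the 8 libraries the highest level was a median of 1.80 times the lowest (range 1.21 for BC029722 to 32.7 for Ifngas1), and 74 genes (37%) spanned at least 2-fold. Among 9336 protein-coding genes at or above the lowest mean of the 200, the median span was 1.43 times and 15.5% spanned at least 2-fold. The spread between libraries of 1 group was also wider, as given next. The highest group was naive for 68 genes and Ly6C+ Sca-1- for 61. It was Ly6C- Sca-1- VM for 26 genes, Ly6C+ Sca-1+ VM for 23, Ly6C- Sca-1+ VM for 11 and true memory for 11. Of those 9336 protein-coding genes, which have no upper limit on the mean, 27.4% were highest in naive and 10.8% in Ly6C+ Sca-1- cells. The shares were 15.1% in Ly6C- Sca-1-, 6.49% in Ly6C+ Sca-1+, 25.2% in Ly6C- Sca-1+ and 15.1% in true memory cells. The lowest was Ly6C- Sca-1+ for 81 and true memory for 53.

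Libraries A and B differed in the same direction in both replicated groups. Of the 200 genes, 146 were higher in B within Ly6C+ Sca-1- and 146 within Ly6C+ Sca-1+, with median log2 differences in CPM of 0.21 and 0.21. Of the 9336 protein-coding genes at or above the lowest mean of the 200, 5592 and 5902 were higher in B, with medians of 0.05 and 0.06. In Ly6C+ Sca-1-, 6 of the 200 genes (3%) were at least 2-fold apart between libraries, against 1.35% of those protein-coding genes. In Ly6C+ Sca-1+ 9 (4.5%) were, against 0.60%. BE692007 was higher in B by 1.24 (69.7 and 164 CPM) and 1.06 (77.0 and 161). Gm38850 was lower in B by -1.02 (14.0 and 6.92 CPM) and -1.37 (14.3 and 5.505). Gm20716, which overlaps Adnp on the same strand, had the widest gap, 4.58 and 38.5 CPM in Ly6C+ Sca-1+. The snoRNA hosts did not follow the shift: 6 and 8 of 15 were higher in B, with medians of -0.10 and 0.01. Snhg8 was lower in B, with 94.8 and 57.4 CPM in Ly6C+ Sca-1- VM and 83.0 and 51.9 in Ly6C+ Sca-1+ VM. What separated A from B was not tested and is not stated.

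**Figure D2:**
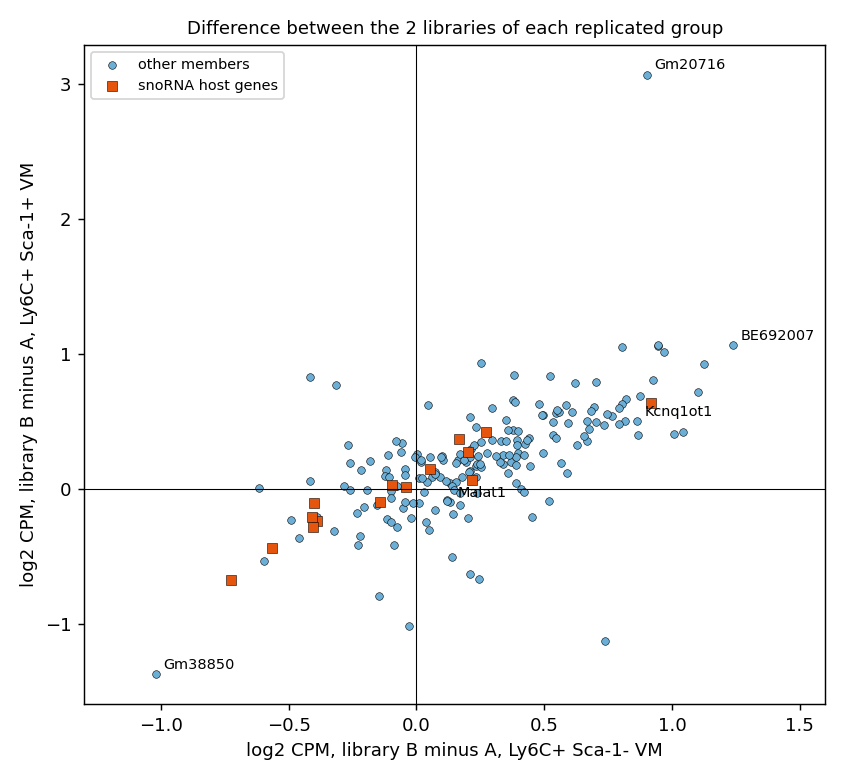
Log2 difference in CPM between libraries B and A in Ly6C+ Sca-1- VM (x axis) and Ly6C+ Sca-1+ VM (y axis) for each of the 200 genes, with the 15 snoRNA hosts as squares. Most points lie above 0 on both axes (146 of 200 on each), while the snoRNA hosts fall on either side.

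Most of the calls came with Ly6C. Between Ly6C+ and Ly6C- VM cells (the mean of 2 groups each, 4 and 2 libraries), 44 of the 200 genes were called higher and 5 lower in Ly6C+ cells (edgeR quasi-likelihood test, Benjamini-Hochberg adjusted p under 0.05 over all 15112 genes tested, called throughout at this threshold). All genes tested were called higher in 8.88% and lower in 12.6% of cases. For the 200 lncRNA genes the shares were 22% and 2.5%, and for the less abundant lncRNA genes 8.29% and 3.37%. For protein-coding genes at or above the lowest mean of the 200, not matched to them in level, they were 10.4% and 14.3%. The fold change was positive for 152 of the 200, with a median log2 of 0.31 against 0.00 over all genes tested. The less abundant lncRNA genes had this shift too, with 828 of 1158 positive and a median of 0.35. In 70 genes (35%) all 4 Ly6C+ libraries lay above both Ly6C- libraries, which 18.3% of all genes did, and in 14 (7%) all lay below, which 28.3% did.

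The size of this shift differed between libraries A and B. With the A libraries of both Ly6C+ groups, the median log2 difference from the Ly6C- libraries was 0.12 for the 200 genes and -0.09 for all genes. With the B libraries it was 0.32 and -0.01. Both A libraries lay above both Ly6C- libraries in 82 of the 200 genes (all genes 24.9%) and below them in 55 (all genes 41.4%). For the B libraries the numbers were 125 (29.9%) and 18 (33.4%). The call counts also rested on single libraries: 84 were called without Ly6C+ Sca-1- A and 77 without B, 23 without Ly6C- Sca-1- and 15 without Ly6C- Sca-1+. Of the 49 genes called with all libraries, 48, 49, 21 and 14 were called in these 4 fits. The Ly6C- libraries also held more of the cell cycle genes (736 and 1273 CPM against 78.6 to 280 in the 4 Ly6C+ libraries), and their part in the result was not tested.

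**Figure D3:**
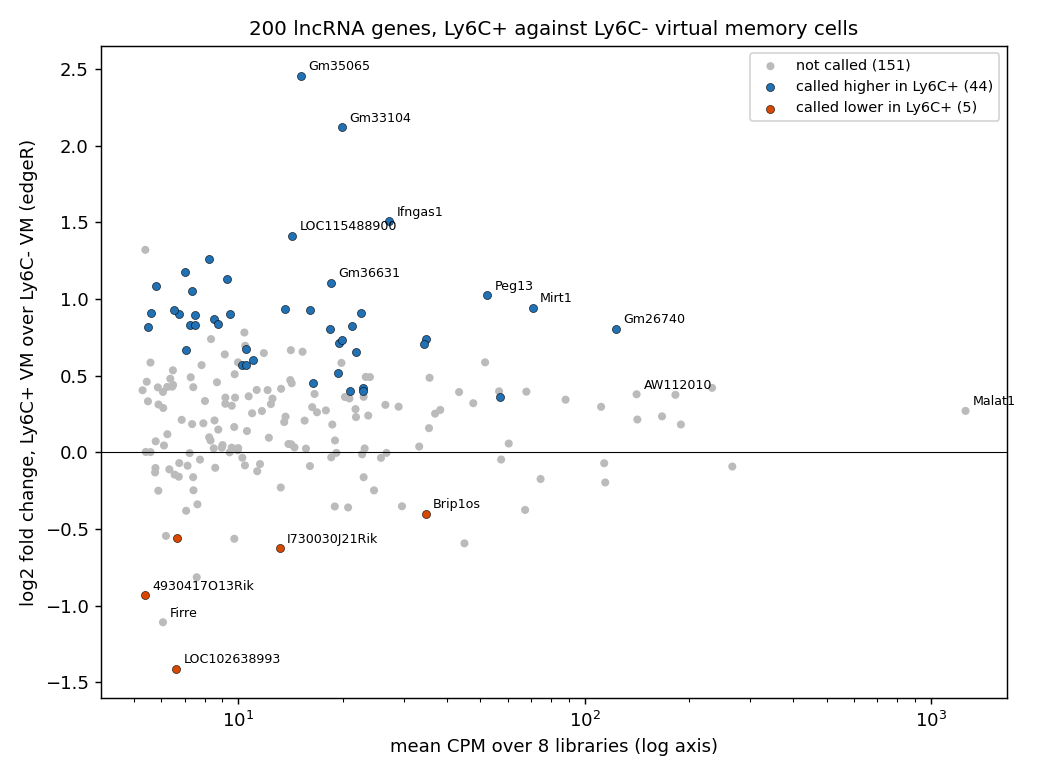
Log2 fold change of the 200 lncRNA genes in Ly6C+ over Ly6C- VM cells against the mean CPM over 8 libraries (log axis), with called genes in colour. There are 44 genes called higher and 5 called lower, and Gm35065 (2.46) and Gm33104 (2.12) have the 2 highest fold changes.

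Gm35065 (Gene ID 102638522, chr3:123440410-123450047, minus strand) had the smallest p. It was at 6.58 CPM in naive cells, 27.0 and 23.4 in Ly6C+ Sca-1-, 24.9 and 22.7 in Ly6C+ Sca-1+, 3.73 in Ly6C- Sca-1-, 5.72 in Ly6C- Sca-1+ and 7.57 in true memory cells. The 4 Ly6C+ libraries lay above all others without overlap. The log2 fold change was 2.46 ± 0.16 (standard error, SE; edgeR adjusted p = 0.000608). The gene overlaps Prss12, which encodes the serine protease neurotrypsin, on the opposite strand, and 157 exonic bases are shared. Prss12 was at 7.86 CPM in naive cells, 22.1 to 29.6 in the Ly6C+ libraries, 5.23 and 7.41 in the Ly6C- libraries and 7.73 in true memory cells. Pearson's r between the log2 levels was 0.99 over the 8 libraries, as a description. Whether counting used the strand is not stated, so reads from the shared bases may have been counted for either gene.

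Ifngas1 (Gene ID 103214, chr10:118502035-118556525, minus strand), an RNA that favours interferon gamma expression in mouse T cells, was at 1.49 CPM in naive cells, 38.5 and 48.7 in Ly6C+ Sca-1-, 39.9 and 47.4 in Ly6C+ Sca-1+, 15.5 in Ly6C- Sca-1-, 16.2 in Ly6C- Sca-1+ and 10.5 in true memory cells. Naive cells were lowest by far, and Ly6C+ VM lay above Ly6C- VM without overlap. The log2 fold change in Ly6C+ over Ly6C- VM was 1.51 ± 0.13 (SE; edgeR adjusted p = 0.00124). Its neighbour Ifng, 56143 bases away, did not follow the same order. Libraries A and B of Ly6C+ Sca-1- cells held Ifng at 52.8 and 19.04 CPM, with 55.1 and 27.8 in Ly6C+ Sca-1+ A and B, 23.6 in Ly6C- Sca-1- and 72.9 in Ly6C- Sca-1+, with 57.8 in true memory and 1.47 in naive cells. Ifng was higher in library A of both groups and Ifngas1 in library B.

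Gm33104 (Gene ID 102635880, chr10:19486715-19507318, plus strand) was at 7.64 CPM in naive cells, 33.4 and 31.4 in Ly6C+ Sca-1-, 35.8 and 26.7 in Ly6C+ Sca-1+, 7.93 and 7.27 in Ly6C- Sca-1- and Sca-1+, and 8.86 in true memory cells. The Ly6C+ libraries stood above the other 4 groups with no overlap, and the log2 fold change was 2.12 ± 0.18 (SE; edgeR adjusted p = 0.00131). The nearest protein-coding gene, 84631 bases away, is Ifngr1, the ligand-binding chain of the interferon gamma receptor. Ifngr1 had 338 to 375 CPM across the Ly6C+ libraries, 209 and 195 in the Ly6C- libraries, 260 in true memory and 142 in naive cells. Pearson's r between the log2 levels was 0.90 over 8 libraries.

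Peg13, an imprinted RNA expressed from the paternal copy within Trappc9, was at 57.6 CPM in naive cells, 65.7 and 62.3 in Ly6C+ Sca-1-, 62.4 and 63.4 in Ly6C+ Sca-1+, 29.2 and 35.5 in Ly6C- Sca-1- and Sca-1+, and 43.2 in true memory cells. Here naive cells were close to Ly6C+ VM, and the Ly6C- libraries were low (log2 fold change 1.02 ± 0.09 SE). Mirt1 (Gene ID 381232, chr19:53441212-53464796), an RNA named from mouse heart infarction, was at 27.2 CPM in naive cells, 106 and 97.2 in Ly6C+ Sca-1-, 82.9 and 91.4 in Ly6C+ Sca-1+, 52.3 and 49.0 in Ly6C- Sca-1- and Sca-1+, and 60.6 in true memory cells. It had a log2 fold change of 0.94 ± 0.09. Gm36631 (Gene ID 102640606, chrX:59589288-59692078) had 23.8 to 26.1 CPM across the 4 Ly6C+ libraries, while the other 4 lay at 9.87 to 15.0 (1.11 ± 0.11). Zfp783 (0.91 ± 0.10) was at 25.4 to 28.6 CPM in Ly6C+ and 15.0 and 14.2 in Ly6C- VM, and LOC115488900 (1.41 ± 0.15) was at 18.2 to 25.04 against 7.21 and 8.74. For these 5 genes the edgeR adjusted p lay between 0.00127 and 0.00279. None of the 8 genes with the smallest p in this direction lost its call in the alternatives tried.

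**Figure D4:**
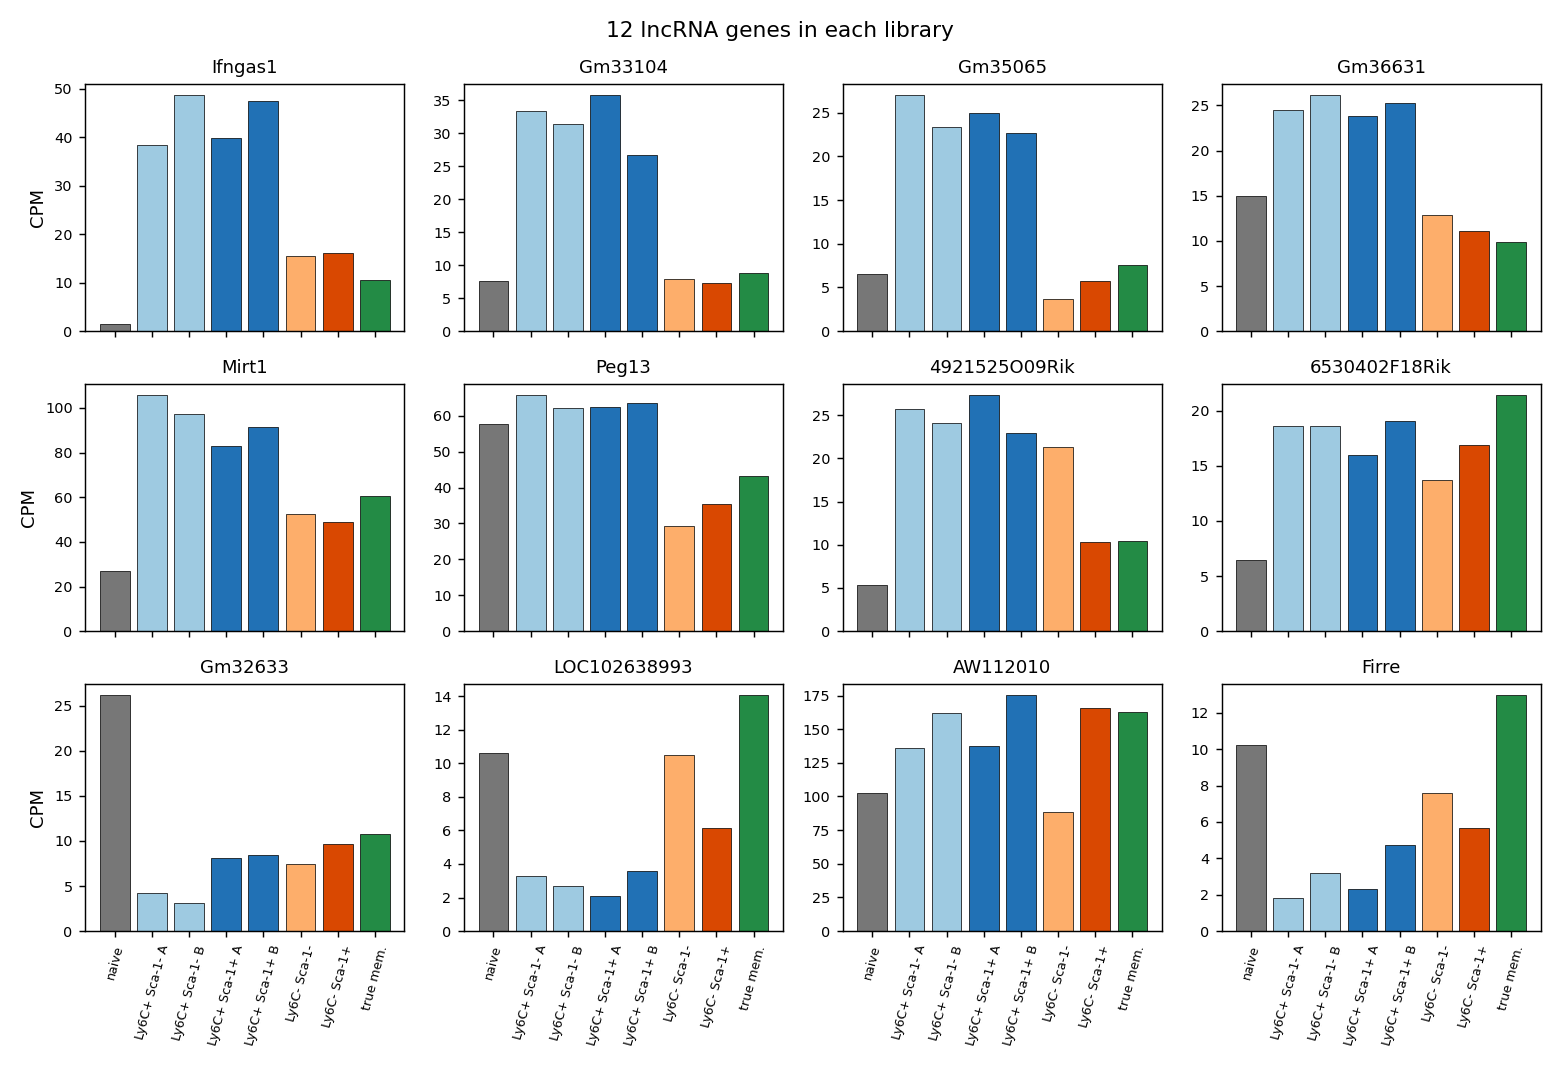
Level in CPM of 12 lncRNA genes in each library, with groups by colour and libraries A and B side by side. Ifngas1, Gm33104, Gm35065, Gm36631 and Mirt1 are highest in the 4 Ly6C+ libraries, Gm32633 is highest in naive cells (26.1 CPM), and LOC102638993 and Firre are highest in true memory cells (14.04 and 12.96 CPM).

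The other called genes covered a range of roles. Of the well studied list, 3 of 21 rose, Ifngas1, Ftx and Pvt1, and 0 fell, where 8.88% of all genes tested and 22% of the 200 rose. Ftx was at 17.3 to 22.7 CPM in Ly6C+ and 9.98 and 11.3 in Ly6C- VM (0.93 ± 0.14, edgeR adjusted p = 0.00851). Pvt1, the neighbour of Myc, was at 17.9 to 20.9 against 14.6 and 14.6 CPM (0.45 ± 0.12, edgeR adjusted p = 0.046). Of the 15 snoRNA hosts 0 passed, although 13 were positive, with a median of 0.18. Among the more abundant genes, Gm26740 rose (118 to 183 CPM against 105 and 74.7; 0.80 ± 0.19), as did Gm36417 (0.36 ± 0.10). Malat1 (0.27 ± 0.09) and AW112010 (0.38 ± 0.11), an immune-induced RNA of mouse, did not pass, with an edgeR adjusted p of 0.083 and 0.057. Firre, which helps anchor the inactive X chromosome, missed the threshold (-1.11 ± 0.32, adjusted p = 0.057), with 1.82 to 4.76 CPM in Ly6C+ and 7.60 and 5.66 in Ly6C- VM.

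Among the other called genes, AI506816 was at 5.65 CPM in naive cells, 12.6 and 14.0 in Ly6C+ Sca-1- cells, 11.1 and 11.4 in Ly6C+ Sca-1+ cells, 6.13 and 5.44 in the Ly6C- VM libraries and 7.64 in true memory cells (1.13 ± 0.14, edgeR adjusted p = 0.00401). The Ly6C+ libraries were above all others. Gssos2 (1.26 ± 0.20) was at 8.77 to 13.4 CPM in Ly6C+ VM cells and at 4.34 in both Ly6C- VM libraries, and it overlaps the acetyl-CoA synthetase gene Acss2 on the same strand. Acss2 had 72.5 to 79.0 CPM in the Ly6C+ libraries against 50.6 and 47.6, and reads from any bases the pair shares cannot be told apart. C920009B18Rik (0.74 ± 0.10) was at 38.6 to 43.3 CPM against 30.4 and 21.8, and Gm30603 (0.83 ± 0.10) at 23.3 to 26.3 against 14.9 and 13.7. For Gm30603 the naive library, at 26.01 CPM, was as high as the Ly6C+ libraries, as it was for Peg13, while for C920009B18Rik it was near the Ly6C- libraries.

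Of the remaining well studied RNAs, Tug1 (0.23 ± 0.12), Neat1 (0.42 ± 0.23), Mir17hg (0.41 ± 0.24) and Kcnq1ot1 (0.78 ± 0.26) did not pass, with an edgeR adjusted p of 0.21, 0.25, 0.27 and 0.086. Kcnq1ot1, the imprinted antisense RNA that silences the Kcnq1 cluster, had 9.46 and 17.2 CPM in Ly6C+ Sca-1- cells, 9.56 and 13.5 in Ly6C+ Sca-1+ cells, 10.2 in Ly6C- Sca-1- cells and 5.36 in Ly6C- Sca-1+ cells. Library B was the higher of both pairs, and the groups overlapped. Mir17hg had 10.8 and 19.6 CPM in Ly6C+ Sca-1- cells, 12.9 and 17.0 in Ly6C+ Sca-1+ cells and 15.8 and 8.51 in the Ly6C- VM libraries, again with B above A and with overlap.

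Lower in Ly6C+ cells were 5 genes. LOC102638993 had levels of 3.31 and 2.66 CPM in Ly6C+ Sca-1-, 2.12 and 3.602 in Ly6C+ Sca-1+, 10.5 and 6.13 in Ly6C- Sca-1- and Sca-1+, 10.6 in naive and 14.0 in true memory cells. The Ly6C+ libraries were below all others (-1.41 ± 0.23, edgeR adjusted p = 0.0109), and without Ly6C- Sca-1- the adjusted p was 0.105. The other 4 were 4930417O13Rik (-0.93 ± 0.18), I730030J21Rik (-0.62 ± 0.14), Brip1os (-0.40 ± 0.10) and Gm39273 (-0.56 ± 0.15), with an edgeR adjusted p of 0.0174 to 0.0469. Each of them lost its call without at least 1 library. The authors' deposited table compares Ly6C- with Ly6C+ VM cells. In it 7 of the 200 were higher and 40 lower in Ly6C- at an adjusted p under 0.05. Of all 15609 genes, 20.8% were called there, 1923 higher and 1321 lower in Ly6C-. Of the 47 lncRNA genes called there, 38 were called here too.

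Between Sca-1+ and Sca-1- cells within Ly6C+ VM (2 libraries each), 0 of the 200 genes were called higher or lower by edgeR, where 0.00662% of all genes were called higher and 0% lower. At an unadjusted p under 0.05 there was 1 of the 200, against 3.58% of all genes higher and 0.721% lower, and DESeq2 called 1. That gene was Gm32633 (Gene ID 102635243, chr7:63986835-64021409). Its level was 8.08 and 8.43 CPM in Ly6C+ Sca-1+ cells, with no overlap with the 4.22 and 3.16 CPM of Ly6C+ Sca-1- cells (1.14 ± 0.21 SE, edgeR adjusted p = 0.18). DESeq2 gave it an adjusted p of 0.00154, and over all alternatives its adjusted p lay between 0.00114 and 0.417, the lowest without Ly6C+ Sca-1- A. In the authors' deposited table it was the 1 gene of the 200 called (signed fold change 2.20, adjusted p = 0.00509, with 1.61% of all genes called), and their comparison of all Sca-1+ with all Sca-1- VM cells called 0 of the 200 and 0.0448% of all genes. The next smallest p-values belonged to Malat1 (-0.24 ± 0.10), Mirt1 (-0.23 ± 0.10), 1810006J02Rik (-0.41 ± 0.17) and Gm33272 (0.40 ± 0.19), none of which passed. Groups did not overlap in 15 genes higher (7.5%, all genes 14.9%) and 17 lower (8.5%, all genes 9.6%) in Sca-1+ cells.

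The Ly6C- VM groups had 1 library each, so their Sca-1 difference has no replicate check. Protein-coding genes here are the 9336 at or above the lowest mean of the 200. Of them, 68 were past a 2-fold difference upwards and 33 downwards in Ly6C- Sca-1+ over Ly6C- Sca-1-. Of the 1178 less abundant lncRNA genes, 68 and 103 were. Of the 200 genes, 0 were past it upwards and 6 downwards, against 2.27% and 3.86% of all genes. These are differences in log2 CPM with TMM scaling and a prior count of 2. The lower genes included LOC115486905 (5.88 and 1.91 CPM in Sca-1- and Sca-1+, log2 difference -1.55), Gm46093 (4.40 and 1.45, -1.52), the readthrough transcript Atrip-trex1 (24.9 and 8.53, -1.48), Gm46485 (10.4 and 4.32, -1.20) and LOC115487140 (5.83 and 2.55, -1.12). AW112010 had the largest difference upwards, 88.4 and 166 CPM (0.96), followed by Gm39323 (17.7 and 32.2, 0.92). In Ly6C+ VM cells AW112010 was at 136 and 162 CPM in Sca-1- and at 138 and 175 in Sca-1+. The test of whether the Sca-1 difference depends on Ly6C called 0 of the 200 genes by edgeR (0% of all genes either way) and 1 by DESeq2. At an unadjusted p under 0.05 it gave 3 higher and 8 lower, against 1.69% and 3.39% of all genes. AW112010 had a difference of differences of 0.91 ± 0.22 and Atrip-trex1 of -1.66 ± 0.35, with an edgeR adjusted p of 0.95 and 0.90. DESeq2 gave Atrip-trex1 an adjusted p of 0.0192. With the column suffix as a block, which no label establishes as a pairing, the edgeR adjusted p was 0.00185 for AW112010 and 0.00638 for Atrip-trex1. Without Ly6C+ Sca-1- A 2 genes were called, and without B 1 was. Atrip-trex1 overlaps Atrip on the same strand, and reads from the bases they share cannot be told apart. Atrip ran the other way (15.5 CPM in Ly6C- Sca-1+ and 7.02 to 11.2 in the other libraries).

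Against naive cells (1 library), the 4 VM groups together had 8 of the 200 genes called higher and 6 lower, where 3.92% of all genes were called higher and 1.48% lower. Fold changes were positive for 76 and negative for 124, with a median of -0.12 (all genes tested 0.00). A block on the column suffix, which no label establishes as a pairing, gave more calls, most of them lower. In it every column without a suffix, the naive and Ly6C- VM columns among them, was coded as A. The Ly6C+ groups thus entered that comparison at the level of library A. Without Ly6C+ Sca-1- A 36 were called and without B 40, which include all 14. All 6 VM libraries lay above the naive library in 23 genes (11.5%, all genes 16.3%) and below it in 46 (23%, all genes 19.8%). Naive and VM cells also differed in cell cycle genes, 33.3 CPM in naive against 78.6 to 1273 in VM libraries, whose part was not tested.

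Ifngas1 had the largest rise, from 1.49 CPM in naive cells to 15.5 to 48.7 in VM libraries (4.15 ± 0.22 SE, edgeR adjusted p = 0.000804). Mirt1 rose from 27.2 to between 49.0 and 106 CPM (1.36 ± 0.12, adjusted p = 0.00373 by edgeR). The RIKEN clone 4921525O09Rik was at 5.33 CPM in naive, 24.0 to 25.8 in Ly6C+ Sca-1-, 23.0 to 27.3 in Ly6C+ Sca-1+, 21.4 in Ly6C- Sca-1- and 10.3 in Ly6C- Sca-1+ cells (1.87 ± 0.20), and at 10.4 in true memory cells. Its level in Ly6C- Sca-1+ was thus near that of true memory cells. 6530402F18Rik was at 6.44 CPM in naive cells and 13.7 to 21.4 in the other 7 libraries (1.38 ± 0.16), and it overlaps Ntng2 on the same strand. The others were 5830432E09Rik (1.38 ± 0.23), AI847159 (1.32 ± 0.24), LOC115488900 (0.99 ± 0.20) and A430093F15Rik (0.84 ± 0.14), which lies 1945 bases from Cd5. LOC115488900 and A430093F15Rik lost their call when either Ly6C+ Sca-1+ library was left out, and AI847159 when library B was. LOC115488900 also lost it with no filter.

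Among those that fell, Gm32633 had the largest fold change, at 26.1 CPM in naive cells, 3.16 to 8.43 in the Ly6C+ libraries, 7.41 and 9.64 in the Ly6C- libraries and 10.8 in true memory cells (-1.92 ± 0.19, edgeR adjusted p = 0.00477). No memory library came near the naive level. Gm41538 was at 45.7 CPM in naive cells and 15.8 to 25.1 in VM libraries (-1.22 ± 0.16), and LOC115487140 at 14.0 and 2.55 to 5.98 (-1.68 ± 0.27). LOC115486905 (-1.15 ± 0.18), LOC115487423 (-0.80 ± 0.16) and AI504432 (-0.55 ± 0.10), which lies 1434 bases from the potassium channel gene Kcna3, also fell. Kcna3 itself was at 74.8 CPM in naive cells and 44.2 to 55.0 elsewhere. AI504432 lost its call when either Ly6C+ Sca-1+ library was left out, and LOC115487423 lost its call with no filter.

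Against true memory cells (1 library), the VM groups had 2 of the 200 genes higher and 1 lower, where 0.139% and 4.43% of all genes were called. Ifngas1 (15.5 to 48.7 against 10.5 CPM; 1.33 ± 0.17, edgeR adjusted p = 0.00817) and Gm36631 (11.1 to 26.1 against 9.87; 0.82 ± 0.14) were higher, and LOC102638993 (2.12 to 10.5 against 14.0; -1.53 ± 0.27) was lower. Gm36631 lost its call without Ly6C+ Sca-1+ A (edgeR adjusted p = 0.0704) or B (0.0681). Firre, at 12.96 CPM in true memory and 1.82 to 7.60 in VM libraries, had -1.55 ± 0.36 and an edgeR adjusted p of 0.088. All 6 VM libraries lay above true memory in 40 genes (20%, all genes 10.9%) and below in 13 (6.5%, all genes 15.7%). Without Ly6C+ Sca-1- A 9 genes were called and without B 11. The genes of dendritic cells and of MHC class II, at 5247 CPM in true memory cells against 46.6 to 366 in VM libraries, stood apart in the same library, and their part was not tested. The comparisons of VM cells with naive and true memory cells share the same 6 VM libraries.

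The 15 snoRNA hosts had their lowest summed level in true memory cells. Their summed level was 505 CPM there, 682 in naive cells, 743 and 635 in Ly6C+ Sca-1- A and B, 730 and 670 in Ly6C+ Sca-1+ A and B, 626 in Ly6C- Sca-1- and 593 in Ly6C- Sca-1+. In VM over true memory 15 of 15 were positive, with a median log2 fold change of 0.36 against -0.01 over all genes tested, and 0 were called. Of all 200 genes, 140 were positive in VM over true memory, with a median of 0.12. In true memory over naive 15 of 15 hosts were negative (median -0.37), with no replicate check. There 146 of the 200 genes were negative as well, with a median of -0.20, against -0.01 over all genes. Both comparisons rest on the same single true memory library. In it 1 marker list, the one that includes MHC class II, summed to 5247 CPM, against 4101 for T cell markers. What other cells contributed to the host levels was not tested. Gas5, whose span holds 8 snoRNA genes, was at 152 CPM in true memory, 179 in naive and 181 to 210 in VM libraries (VM over true memory 0.37 ± 0.11, edgeR adjusted p = 0.16). Snhg1, also with 8, was at 65.4 CPM in true memory and 75.9 to 108 elsewhere. Snhg12, with 4, was at 38.8 against 48.5 to 73.5, and Zfas1, with 3, at 42.6 against 47.9 to 66.8. Snhg5 was at 28.6 against 34.9 to 39.9 CPM. Snhg3 (7.75 to 11.96 CPM over all libraries), Snhg6 (14.8 to 18.5), Snhg20 (6.63 to 12.5), Snhg4 (5.70 to 9.06) and Dancr (5.03 to 7.48) were lower in level. Snhg8, Snhg15, Snhg16, Snhg17 and Epb41l4aos complete the class. By RefSeq, 19 of the 200 genes hold a snoRNA gene in their span, 19 of 19 were positive in VM over true memory cells and 16 of 19 negative in true memory over naive cells, and 2410006H16Rik, with 3, is one that its symbol does not give away.

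True memory against naive cells compared 1 library with 1. At least 2-fold higher in true memory were 7 of the 200 genes and at least 2-fold lower 4, against 10% and 2.02% of all genes, and 146 of 200 differences were negative (median log2 -0.20). Ifngas1 (1.49 and 10.5 CPM in naive and true memory, log2 difference 2.79), 6530402F18Rik (6.44 and 21.4, 1.73), 5830432E09Rik (2.40 and 6.65, 1.46), Gm38850 (3.66 and 9.51, 1.37) and AI847159 (2.58 and 6.27, 1.27) were the highest. Gm32633 (-1.27), LOC115487140 (-1.15), Gm38712 (-1.06), Gm41538 (-1.01) and 1810026B05Rik (159 and 88.4 CPM, -0.85) were the lowest. Gm38850 also differed 2-fold or more between libraries A and B, so its gap is no larger than that spread.

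In all, 58 of the 200 genes were called in at least 1 comparison and 142 in none. Ifngas1 was called in 3, and Mirt1, Gm36631, 4921525O09Rik, LOC102638993, LOC115486905 and LOC115488900 in 2. LOC115486905 was at 11.03 CPM in naive, 6.96 to 8.31 in Ly6C+ VM, 5.88 in Ly6C- Sca-1-, 1.91 in Ly6C- Sca-1+ and 8.03 in true memory cells.

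Positions were taken from the RefSeq span of each gene and the protein-coding genes and exons of GENCODE M21. By these, 36 of the 200 genes overlap a protein-coding gene on the same strand and 59 overlap one on the opposite strand. Another 15 start within 1 kb of one on the opposite strand without overlap, and 71 do neither. Counting also genes placed in the overlap classes, 42 had such a divergent start. Strand was missing for 18, and 1 gene, D930016D06Rik, was not matched. Of 106 overlapping genes, the shared exonic bases could be computed for 61, and 45 of them shared at least 1 base. The median of Pearson's r between a gene and its overlapping or nearest protein-coding gene over the 8 libraries was -0.03 for same-strand overlaps, 0.07 for opposite-strand overlaps, 0.07 for divergent starts and 0.20 for the rest. Divergent starts gave r of at least 0.7 in 0 of 15, opposite-strand overlaps in 9 of 46, same-strand overlaps in 8 of 31 and the rest in 9 of 61. The highest r belonged to Gm35065 with Prss12 (0.99), LOC115489960 with Pusl1 (0.96, same strand) and BC002059 with Zfp960 (0.95, 89956 bases apart). Pvt1 and Myc, 47612 bases apart, had 0.80, and Ifngas1 and Ifng 0.73. These values share library, depth and, for overlapping genes, possibly reads. Same-strand overlaps had 13 of 36 genes called higher and 1 lower in Ly6C+ over Ly6C- VM, opposite-strand overlaps 10 and 1 of 59, divergent starts 3 and 0 of 15, the rest 14 and 3 of 71 and genes without strand 4 and 0 of 18. Over all 200 the shares were 22% and 2.5%, and over all genes tested 8.88% and 12.6%.

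**Figure D5:**
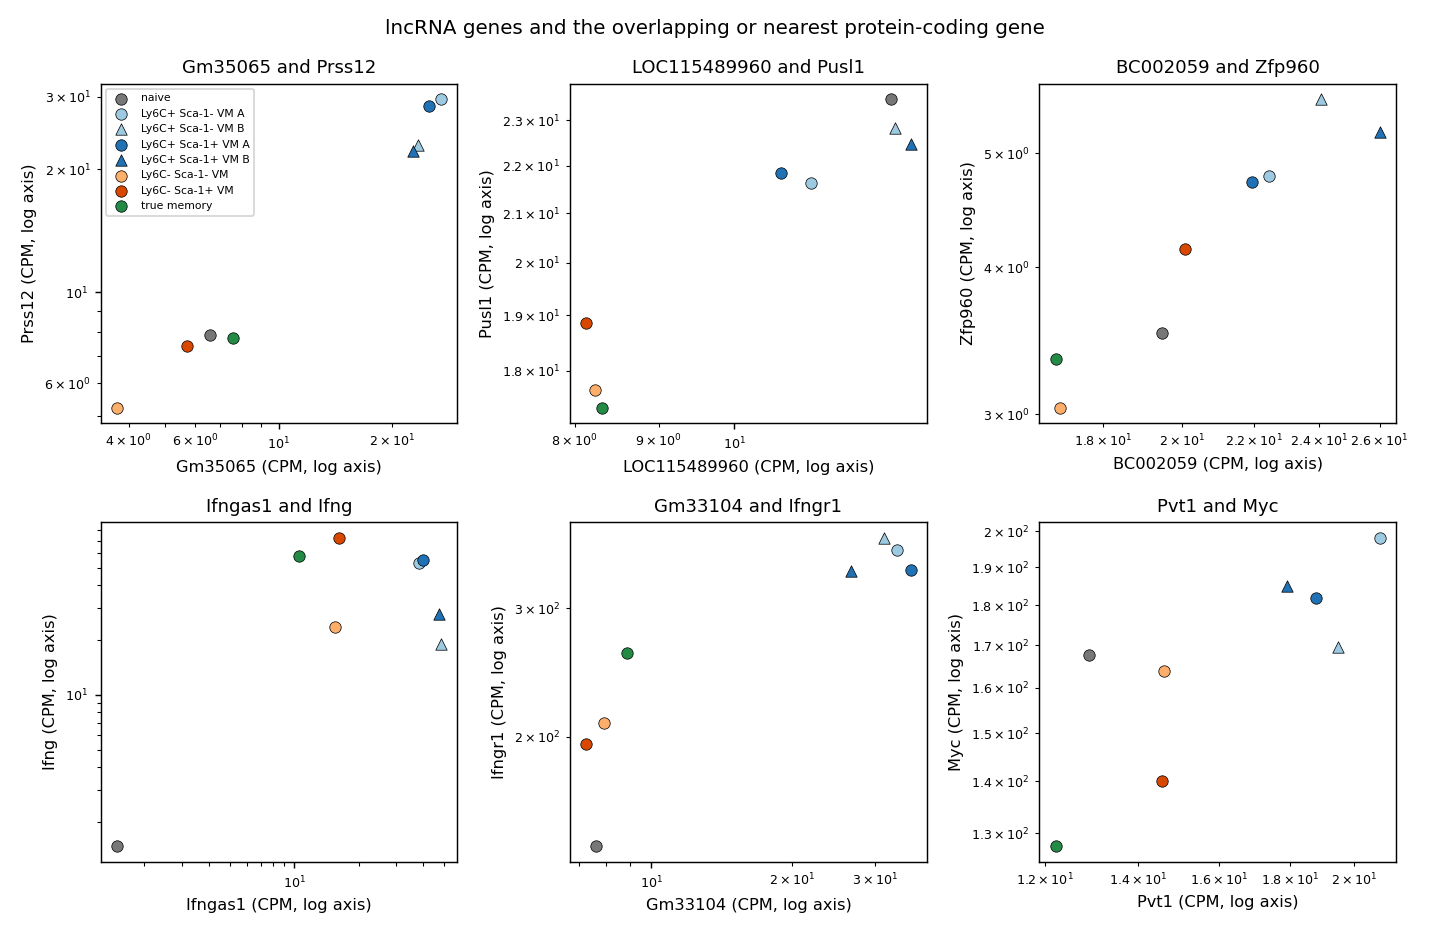
Level in CPM (log axes) of 6 lncRNA genes and their overlapping or nearest protein-coding gene, 1 point per library, with library B as a triangle. Gm35065 and Prss12 rise together across libraries (r = 0.99), and the naive library is lowest for both Ifngas1 (1.49 CPM) and Ifng (1.47 CPM).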

How the data were processed

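Bulk RNA sequencing of 8 libraries in 6 sorted groups was used. Per the labels' protocols, libraries were made with a stranded mRNA kit (TruSeq), and read as paired ends of 101 bp. Quality was checked in FastQC (0.11.7) and ends were cut by Trimmomatic (0.38). The genome build mm10 and the tools R (3.6.0) and edgeR are listed in the submitters' processing notes. Neither the aligner nor the read counter and its strand setting is given in the sources used here. Groups were taken from the sample titles, because another label field gives every library the same cell type.

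The authors deposited 1 table of raw read counts per gene, whose smallest count was 1, together with TPM values, of which those of the 4 lone libraries were used to set genes side by side per length. The 12 columns of FPKM, TPM and log2 values of the replicated groups were not used. The authors also deposited their own comparisons as a signed fold change (a score) and adjusted p-values, quoted only where named as theirs.

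Counts of all genes entered 1 fit in edgeR 4.0.16 (R 4.3.3): filterByExpr by group (15112 of 15609 genes, all 200 members), TMM scaling, a quasi-likelihood test with 1 coefficient per group, 2 residual and 4.14 prior degrees of freedom and a common biological coefficient of variation of 0.151. P-values were adjusted over all genes tested and called under 0.05. The SE was the fold change divided by the square root of F. Lone libraries set against each other were given log2 CPM differences with a prior count of 2 and no test. Figures were drawn with matplotlib 3.10.9. Alternatives were DESeq2 1.42.0, RLE scaling, no filter, a replicate block, each library left out and 3 other ways to choose the members. Coordinates and sequences of the members are from RefSeq on GRCm38.p6, the build called mm10. Gene types, the protein-coding genes set beside the members, shared exonic bases and some strands are from GENCODE M21. Genes named were the 20 most abundant, up to 8 by p in each direction of a comparison (5 where 0 were called), 5 each way between lone libraries, the hosts, the well studied list and the genes at the edge of the 200. Others named in passing (Gm20716, BC002059, LOC115489960 and those singled out for their annotation or span) were picked after their values were seen. The members and lists were chosen with earlier results of these data known.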

Additional observations from a re-analysis of the deposited data

How the results depend on the processing

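No result reversed its direction. With Ly6C+ against Ly6C- VM, 49 genes were called, 64 by DESeq2, 51 with RLE scaling and 41 with no filter, and leaving out single libraries gave 15 to 84. VM against naive cells gave 14, 25 by DESeq2 and 13 to 40 with libraries left out. VM against true memory cells gave 3, 8 by DESeq2 and 4 to 11 with libraries left out. The Sca-1 difference in Ly6C+ VM gave 0, 1 by DESeq2 and 0 to 1 with libraries left out, and its dependence on Ly6C gave 0, 1 by DESeq2 and 0 to 2. The cause of these changes was not tested. With members chosen by median CPM (193 shared), by mean TPM of 4 libraries (140 shared) or by the mean of the 6 group means (197 shared, an alternative chosen after seeing the data), the counts stayed within 1.5 times. They were 49, 43 and 49 for Ly6C, and for members by group means 14 against naive and 4 against true memory cells. The columns carry a suffix and no replicate number, so a replicate block could use only the suffix as the pairing of libraries A and B. Columns of the 4 groups with 1 library have no suffix and were coded as A. In comparisons with those groups, the Ly6C+ groups thus entered at the level of library A. With the block 2 genes were called for Sca-1, 112 for Ly6C (86 higher, 26 lower) and 8 for the dependence. For VM against naive cells it called 81 (25 higher, 56 lower) and against true memory cells 42 (26 higher, 16 lower). The counts of this section are of the 200 genes alone, without the share over all genes, and do not show a change particular to them. The B minus A differences of the 2 replicated groups correlated at 0.64 over the 200 genes and 0.35 over all genes, as a hint from the data and not from the design. Of 346 alternative values of named genes, 306 kept their direction and side of the threshold, 28 lost the call and 12 gained one. Only 2 groups had a second library, which limits every test. The lowest count of any of the 200 genes was 74.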
